A study of Mus musculus with 5 samples.

Results

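Tnfrsf4, Tnfrsf18, Foxp3, Il2ra, Ctla4, Icos and Ikzf2 are genes of regulatory and activated T cells, and their UMI levels (unique molecular identifiers, 1 per counted RNA molecule) are described here in the T cells of a mouse leukaemia experiment. All 7 symbols were found among the 32285 genes counted. T cells were the barcodes with at least 2 UMIs summed over Cd3d, Cd3e and Cd3g, chains of the T cell receptor complex, and there were 717 of them among 31040 kept cells. The 7 genes were chosen because Tnfrsf4 was lower in T cells of the treated libraries, so the 7 genes are compared between treated and control T cells by values only, without a test. At the edge of the T cell rule, 28 kept cells held exactly 2 Cd3 UMIs and 8 held 3, while 465 cells with 1 such UMI were left out.

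C57BL/6 mice had received CMM cells, a GFP-positive acute myeloid leukaemia with the inv(16) rearrangement, by vein. Once GFP-positive leukaemia cells were at about 1% in blood, mice were injected by vein 3 times, every other day, with PBS or with CpG-STAT3dODN, in which a double-stranded decoy that STAT3 can bind is linked to a CpG oligonucleotide. There was 1 library from PBS (n = 1) and there were 4 from the decoy (n = 4), called Decoy 2, Decoy 3, Decoy 5 and Decoy 6, each of spleen cells sorted as positive for GFP and c-Kit and counted with 10x Genomics 3' chemistry. All 5 libraries thus came from leukaemia-bearing animals that differed by what was injected, the labels give neither the age of the mice nor whether each library was 1 animal, and with 1 PBS library the treatment and that library cannot be told apart.

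Regulatory T cells restrain other immune cells and are defined by the transcription factor Foxp3. They carry the high-affinity interleukin-2 receptor chain Il2ra (CD25), the inhibitory receptor Ctla4, which competes with the costimulatory receptor Cd28 for Cd80 and Cd86, and in many cells the transcription factor Ikzf2 (Helios). The costimulatory receptors Tnfrsf4 (OX40), Tnfrsf18 (GITR) and Icos are present on regulatory T cells and are also induced on conventional T cells after activation, so that none of these receptors alone marks a regulatory T cell.

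On mm10, with the gene models of GENCODE vM21, Tnfrsf4 (ENSMUSG00000029075) lies on the plus strand at chr4:156013843-156016612 and Tnfrsf18 (ENSMUSG00000041954) on the same strand at chr4:156026164-156028895. These TNF receptor genes are neighbours, 9.551 kb apart, with no protein-coding gene between them. Ctla4 (ENSMUSG00000026011, chr1:60887000-60915832) and Icos (ENSMUSG00000026009, chr1:60977927-61000320) are also neighbours on the plus strand, 62.094 kb apart with no protein-coding gene between. Ikzf2 (ENSMUSG00000025997) lies on the minus strand at chr1:69531214-69687245, Il2ra (ENSMUSG00000026770) on the plus strand at chr2:11642807-11693193 and Foxp3 (ENSMUSG00000039521) on the plus strand at chrX:7573644-7595245.

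Promoter sequences are shown for the neighbouring TNF receptor genes, for Foxp3, which defines the regulatory cells, and for Il2ra, which they carry. RefSeq starts on GRCm38.p6 were available for 5 of the 7 genes, Icos and Ikzf2 not among them, and Foxp3 had 2 starts, of which the second is shown. Each sequence runs 5′ to 3′ on the plus strand from 250 bases before the start to 50 bases after it. Capitals mark matches, on either strand, to any of 4 short motifs: TTCNNNGAA (STAT), GGG followed after any 5 bases by CC (NF-kB), TGTTTAC (forkhead) and TGANTCA (AP-1).
Tnfrsf4, chr4:156013445-156013744: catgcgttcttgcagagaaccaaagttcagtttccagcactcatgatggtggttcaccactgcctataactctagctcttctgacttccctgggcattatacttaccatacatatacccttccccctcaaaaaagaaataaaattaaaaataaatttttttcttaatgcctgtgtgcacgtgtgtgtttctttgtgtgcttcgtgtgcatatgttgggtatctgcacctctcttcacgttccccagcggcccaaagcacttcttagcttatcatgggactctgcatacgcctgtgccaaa
Tnfrsf18, chr4:156026072-156026371: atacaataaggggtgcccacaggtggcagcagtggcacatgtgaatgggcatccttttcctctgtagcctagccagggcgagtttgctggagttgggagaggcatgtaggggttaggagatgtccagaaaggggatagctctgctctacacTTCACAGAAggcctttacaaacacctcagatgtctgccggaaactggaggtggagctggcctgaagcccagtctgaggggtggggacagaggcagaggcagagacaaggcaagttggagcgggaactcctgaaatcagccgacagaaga
Foxp3, chrX:7580233-7580532: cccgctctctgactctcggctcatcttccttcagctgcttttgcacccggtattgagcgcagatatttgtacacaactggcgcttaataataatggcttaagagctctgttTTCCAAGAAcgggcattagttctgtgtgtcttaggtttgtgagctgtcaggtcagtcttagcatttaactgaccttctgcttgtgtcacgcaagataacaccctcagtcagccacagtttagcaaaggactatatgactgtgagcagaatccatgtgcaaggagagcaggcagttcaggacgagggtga
Il2ra, chr2:11642542-11642841: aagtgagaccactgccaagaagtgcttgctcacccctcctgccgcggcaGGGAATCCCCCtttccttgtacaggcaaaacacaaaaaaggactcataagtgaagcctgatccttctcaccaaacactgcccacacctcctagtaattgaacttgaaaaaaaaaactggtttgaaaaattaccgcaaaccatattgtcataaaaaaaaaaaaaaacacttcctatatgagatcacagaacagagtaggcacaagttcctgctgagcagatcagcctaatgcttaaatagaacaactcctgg
Tnfrsf18 held 1 STAT match, TTCACAGAA, and the second Foxp3 start held 1, TTCCAAGAA. A STAT match was present in 8.30% of 32851 RefSeq promoters of this length. Il2ra held overlapping NF-kB matches, GGGAATCCCC, which fits the motif on both strands, and GGAATCCCCC, which fits it on the minus strand. The first Foxp3 start held GGCTGATCCC, and 50.8% of promoters held an NF-kB match. The windows of Tnfrsf4 and Ctla4 held no match to the 4 motifs, and no forkhead or AP-1 match, present in 3.65% and 7.81% of promoters, lay in any of the 6 windows. These letters describe the windows and are not measured binding sites.

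The T cells carried T cell receptor RNA. A UMI of Trac, Trbc1 or Trbc2, the constant chains of the receptor, was found in 94.3% of PBS T cells and in 94.7% to 97.7% of those of the Decoy libraries, although the sort was for GFP and c-Kit. The PBS library held 70 T cells and Decoy 2, Decoy 3, Decoy 5 and Decoy 6 held 95, 125, 252 and 175. Their median depth was 7166 UMIs in PBS, and in the Decoy libraries 18236, 15994, 11793.5 and 24067. The T cell-like cluster, which also carried the cytotoxic genes Prf1 and Gzma, held 90.0% of PBS and 71.6% ± 7.95 (SD, n = 4) of Decoy T cells. Macrophage-like clusters held 0 of the 70 PBS T cells, which allows up to 4.29%, and 19.8% ± 9.03 of Decoy T cells, and 24.3% of PBS against 49.1% ± 7.43 of Decoy T cells held at least 2 UMIs of mast cell, B cell or macrophage markers. The summed level of 8 macrophage markers in T cells was 29.0 CPM (the UMIs of a gene or list per 1000000 UMIs of the cell set) in PBS, with 2 of the 8 at 0, and 523 to 4046 CPM in the Decoy libraries, with none at 0. The 8 B cell markers stood at 21.1 CPM in PBS and 172 to 793 CPM in the Decoy libraries, and the 8 neutrophil markers at 14862 CPM in PBS and 4181 to 23712 CPM in the Decoy libraries. Plasma cell markers stood at 116 CPM in PBS and 304 to 2105 CPM in the Decoy libraries, and the 7 markers of conventional dendritic cells at 5.28 CPM, with 5 at 0, and 183 to 851 CPM. Erythroid markers went the other way, at 4088 CPM in PBS and 151 to 1581 CPM. Leaving out the cells with mast cell, B cell or macrophage markers did not remove the neutrophil markers, which then stood at 26724 CPM in PBS and 58.2 to 41225 CPM in the Decoy libraries. The part of other cells' RNA in the levels of the whole T cell set was not tested.

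Tnfrsf4, the receptor for OX40 ligand, stood at 251 CPM in PBS T cells (285 UMIs, exact 95% Poisson interval 223 to 282 CPM). It stood at 70.9, 48.9, 64.4 and 45.1 CPM in T cells of Decoy 2, Decoy 3, Decoy 5 and Decoy 6, a mean of 57.3 ± 12.3 CPM (SD, n = 4). Every Decoy library lay below PBS, whose level was 4.37 times the Decoy mean, and the Decoy libraries ran from 45.1 to 70.9 CPM. In T cells without other markers Tnfrsf4 stood at 421 CPM in PBS and at 111 ± 33.8 CPM in the Decoy libraries, a ratio of 3.81.

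Tnfrsf18, the receptor for GITR ligand, stood at 179 CPM in PBS T cells and at 70.9, 53.1, 62.4 and 55.9 CPM in the Decoy libraries in the same order. PBS again lay above every Decoy library, at 2.95 times their mean of 60.6 ± 7.91 CPM. The spread of the Decoy libraries was narrower than for Tnfrsf4, from 53.1 to 70.9 CPM.

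Il2ra, the alpha chain of the interleukin-2 receptor, stood at 33.4 CPM in PBS (38 UMIs) and at 4.78, 9.39, 10.1 and 7.04 CPM in the Decoy libraries. Its PBS interval, 23.7 to 45.9 CPM, lay above all 4 Decoy intervals. Ctla4 stood at 29.9 CPM in PBS and at 19.5, 22.0, 20.6 and 10.5 CPM in the Decoy libraries, and its PBS interval of 20.7 to 41.8 CPM overlapped those of Decoy 2, Decoy 3 and Decoy 5. Icos, a costimulatory receptor of the Cd28 family, stood at 70.4 CPM in PBS and at 37.5, 29.4, 40.8 and 24.2 CPM in the Decoy libraries, which were all lower.

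Foxp3 stood at 36.1 CPM in PBS T cells, from 41 UMIs in 10 cells, and at 4.78, 4.94, 4.28 and 1.14 CPM in the Decoy libraries, from 13, 20, 25 and 6 UMIs in 5, 9, 9 and 3 cells. Ikzf2 stood at 395 CPM in PBS and at 228, 111, 98.0 and 160 CPM in the Decoy libraries, where the highest library was 2.33 times the lowest. In these T cells all 7 genes were lower in each of the 4 Decoy libraries than in PBS. With 1 PBS library such an order is common: 33.9% of the 11837 genes tested in T cells had all 4 Decoy libraries below PBS and 33.3% had all 4 above, and nothing is read from the count for genes chosen on this contrast.

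The levels depended on which T cells were summed. Without the cells that held other markers, Foxp3 stood at 80.6 CPM in PBS and 12.9 ± 3.78 CPM in the Decoy libraries (SD, n = 4), a ratio of 6.27 where all T cells gave 9.53. Icos then stood at 148 and 66.9 ± 13.1 CPM, Ctla4 at 67.6 and 34.2 ± 18.0 CPM, and Il2ra at 58.8 and 14.9 ± 7.58 CPM. Tnfrsf18 stood at 261 and 125 ± 16.4 CPM and Ikzf2 at 497 and 238 ± 52.0 CPM, and all 4 Decoy libraries stayed below PBS for each gene. In the T cell-like cluster Ctla4 lost this order, with 39.99 CPM in PBS and 23.1, 46.3, 42.4 and 20.7 CPM in Decoy 2, Decoy 3, Decoy 5 and Decoy 6.

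**Figure D1:**
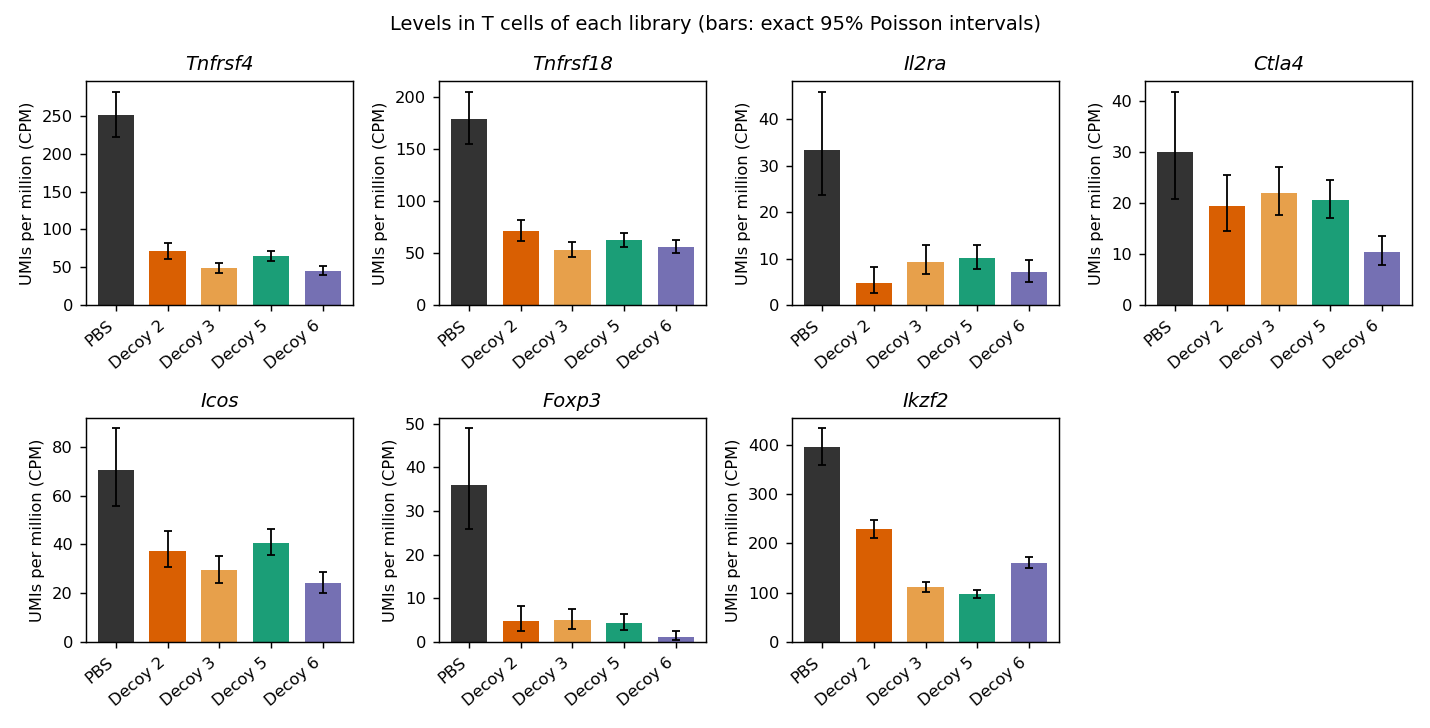
Level in CPM in the T cells of each library, 1 panel per gene on linear axes from 0; bars are the level in 1 library and error bars its exact 95% Poisson interval, which covers counting error only. PBS is the highest library in all 7 panels, with Tnfrsf4 at 251 CPM against 45.1 to 70.9 CPM.

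The share of T cells with at least 1 UMI depended on depth. Unthinned, Tnfrsf4 was found in 47.1% of PBS T cells (exact Clopper-Pearson 95% interval 35.1% to 59.4%) and in 34.7%, 36.8%, 30.2% and 28.0% of Decoy T cells, whereas Tnfrsf18 was found in 60.0% and in 63.2%, 64.8%, 59.9% and 58.9%. When each T cell was thinned to 3000 UMIs, which left out 12 PBS cells and 2, 4, 18 and 8 Decoy cells, Tnfrsf4 was found in 31.7% of PBS cells and 14.6% ± 2.12 of Decoy cells (SD, n = 4). The thinned shares of Tnfrsf18 were 34.5% and 22.0% ± 1.88, and those of Icos 21.2% and 14.0% ± 1.72. Thinned Ctla4 was in 13.2% of PBS cells and 12.7% of Decoy 3 cells, the closest pair of libraries. As background, B cell-like cells had medians of 3928.5 UMIs in PBS and 6227 to 9038 in the Decoy libraries, and their unthinned shares were 0.428% to 2.04% for Tnfrsf4 and 11% to 17.1% for Tnfrsf18, and no Foxp3 UMI was found in 2370 cells.

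The level of these genes was also set against T cell receptor RNA, a ratio added after the data had been seen. Per 100 UMIs of Trac, Trbc1 and Trbc2 in the same T cells, PBS held 13.5 UMIs of Tnfrsf4, and the 4 Decoy libraries 3.66, 3.62, 3.81 and 2.76. For Foxp3 the numbers were 1.94 in PBS and 0.0699 to 0.366 in the Decoy libraries, and for Ikzf2 21.2 and 5.79 to 11.8. Ctla4 did not keep the order on this scale: PBS held 1.61 and Decoy 3 held 1.63, with the other Decoy libraries at 0.641 to 1.22.

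The make-up of the T cells differed between libraries as well. Cells with a Foxp3 UMI were 14.3% of PBS T cells (10 of 70, interval 7.07% to 24.7%) and 5.26%, 7.20%, 3.57% and 1.71% of Decoy T cells. Cells with Cd4 but no Cd8a or Cd8b1 UMI, called Cd4 T cells here, were 27.1% of PBS and 19.3% ± 5.09 of Decoy T cells, and cells with Cd8a or Cd8b1 but no Cd4 UMI, called Cd8 T cells, were 40% and 61.7% ± 7.55. Among Cd4 T cells alone, 3 of 19 in PBS held Foxp3, and 3 of 13, 5 of 31, 4 of 56 and 1 of 29 in the Decoy libraries, so PBS at 15.8% lay within the Decoy range of 3.45% to 23.1%. Of all 36 Foxp3-positive T cells, 17 held a Cd4 UMI and 7 a UMI of Cd8a or Cd8b1. Shares of cells with a UMI rest on depth, which was lower in PBS, and in these sums fewer cells of a kind and less RNA per cell cannot be told apart.

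Tnfrsf4 was lower in the Decoy libraries in Foxp3-negative T cells, in Cd4 T cells without Foxp3 and in Cd8 T cells. In Foxp3-negative T cells it stood at 150 CPM in PBS and at 58.0, 33.6, 53.8 and 42.3 CPM in Decoy 2, Decoy 3, Decoy 5 and Decoy 6. In Cd4 T cells without Foxp3 it stood at 433 CPM in PBS and 142 ± 31.6 CPM in the Decoy libraries, and in Cd8 T cells at 166 CPM and at 56.4, 17.0, 26.1 and 13.5 CPM. Foxp3-positive cells showed no such order, since Decoy 6 at 1357 CPM, from 3 cells and 15 UMIs, lay above PBS at 1289 CPM, with Decoy 2, Decoy 3 and Decoy 5 at 808, 291 and 412 CPM. Among cells without other markers, Foxp3-positive cells held 1179 CPM in PBS and 1077, 1876, 931 and 1357 CPM in the Decoy libraries, while Foxp3-negative cells held 333 CPM in PBS and 21.9, 96.1, 76.2 and 96.1 CPM. PBS thus lay within the Decoy range in the first of these sets and above it in the second. Foxp3-positive cells held 45.6% of the Tnfrsf4 UMIs of PBS T cells and 19.7%, 35.4%, 18.9% and 6.33% of those of the Decoy libraries. For Il2ra the share was 73.7% in PBS and 13.6% to 31.6% in the Decoy libraries, and outside Foxp3-positive cells Il2ra stood at 9.66 CPM in PBS and 4.11 to 9.0 CPM in the Decoy libraries.

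**Figure D2:**
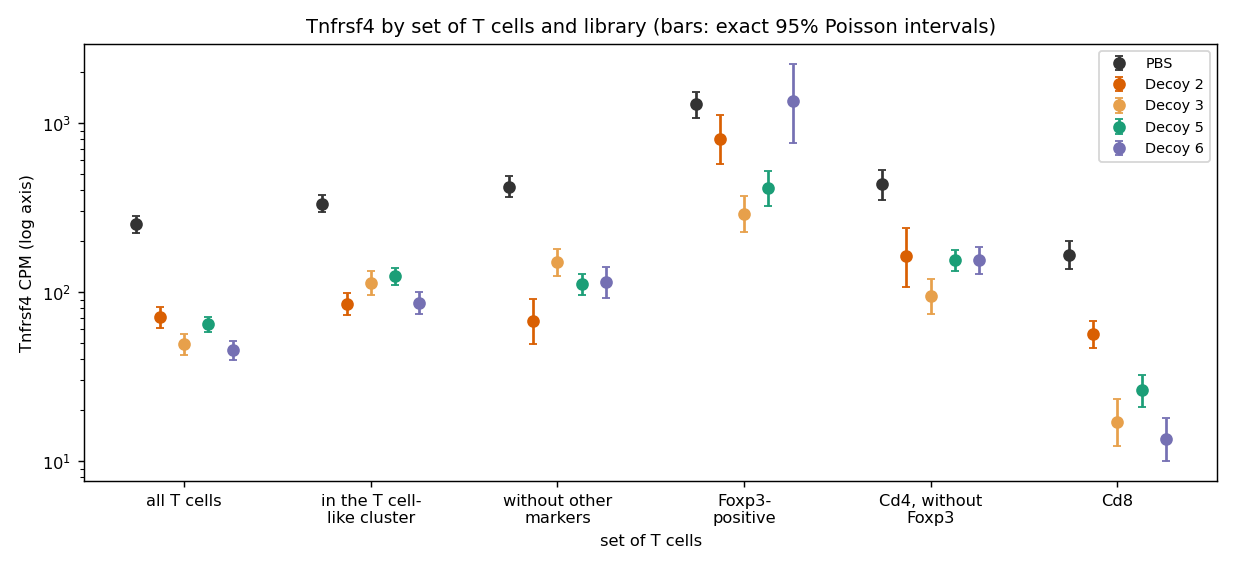
Tnfrsf4 level in CPM, on a log axis, in 6 sets of T cells for each library; points are single libraries and error bars exact 95% Poisson intervals, which cover counting error only. PBS lies above all 4 Decoy libraries in every set except Foxp3-positive cells, where Decoy 6 is at 1357 CPM and PBS at 1289 CPM.

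Across all genes, the edgeR quasi-likelihood test of Decoy against PBS T cells called 0 of 11837 genes (0%) at a Benjamini-Hochberg adjusted p under 0.05, with 2185 genes at an unadjusted p under 0.05. DESeq2 called 364 genes, and edgeR without Decoy 2 called 1373. The spread in this fit came from the Decoy libraries alone, and nothing is read from it for the 7 genes, which were chosen on this contrast. The median log2 difference was -0.80 for 18 other regulatory T cell genes and 0.07 for all genes, given as a description. In the second list Tgfb1, a suppressive cytokine, had Decoy and PBS means of 171 and 156 CPM, and Capg, an actin-capping protein, 122 and 176 CPM. The median was 0.04 for 30 genes of T cell activation, in which Gzmb, a cytotoxic granule protease, had means of 558 and 619 CPM, and -0.15 for 16 T cell identity genes.

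Within the libraries, the other 6 genes were higher in T cells with Foxp3 than in those without, a contrast that did not enter the choice of the genes. It was fitted with a library term over the 4 libraries with at least 5 Foxp3-positive cells, PBS, Decoy 2, Decoy 3 and Decoy 5. All 6 genes passed the test and were higher in 4 of 4 libraries, where 1.18% of the 6691 genes tested were called, 0.583% higher and 0.598% lower. Tnfrsf4 stood at 1289, 808, 291 and 412 CPM in Foxp3-positive cells of PBS, Decoy 2, Decoy 3 and Decoy 5, and at 150, 58.0, 33.6 and 53.8 CPM in Foxp3-negative cells, with no overlap between the sets. Its log2 fold change was 3.11 ± 0.20 (SE, edgeR adjusted p = 2.09e-09). Il2ra stood at 278, 42.5, 49.9 and 46.4 CPM against 9.66, 4.11, 6.83 and 9.0 CPM, a log2 fold change of 3.26 ± 0.40. It passed the low-count filter through the Foxp3-positive cells alone, which fixed its direction. Its p is therefore left out, and it is not read as support among the 6. Tnfrsf18 and Ctla4 had log2 fold changes of 2.44 ± 0.25 and 2.65 ± 0.32 (edgeR adjusted p = 2.50e-06 and 2.50e-05). Those of Icos and Ikzf2 were 2.06 ± 0.28 and 2.13 ± 0.20 (edgeR adjusted p = 9.27e-05 and 4.87e-07).

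The libraries differed in the absolute level within these sets, more than in the direction. Ikzf2, for instance, stood at 1170 CPM in Foxp3-positive PBS cells and at 420 CPM in those of Decoy 3, with 320 and 91.9 CPM in the Foxp3-negative cells of the same libraries. Without the library term, which treats the sets as unpaired, Ctla4 still passed (edgeR adjusted p = 0.00450) and the other 5 did not, with adjusted p of 0.0836 for Tnfrsf4, 0.150 for Tnfrsf18, 0.0679 for Il2ra, 0.0679 for Icos and 0.288 for Ikzf2. When cells with other markers were left out, which kept 3 libraries, all 6 passed again, with Tnfrsf4 at 3.05 ± 0.43 (edgeR adjusted p = 0.00500). The same limit holds there for Il2ra.

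**Figure D3:**
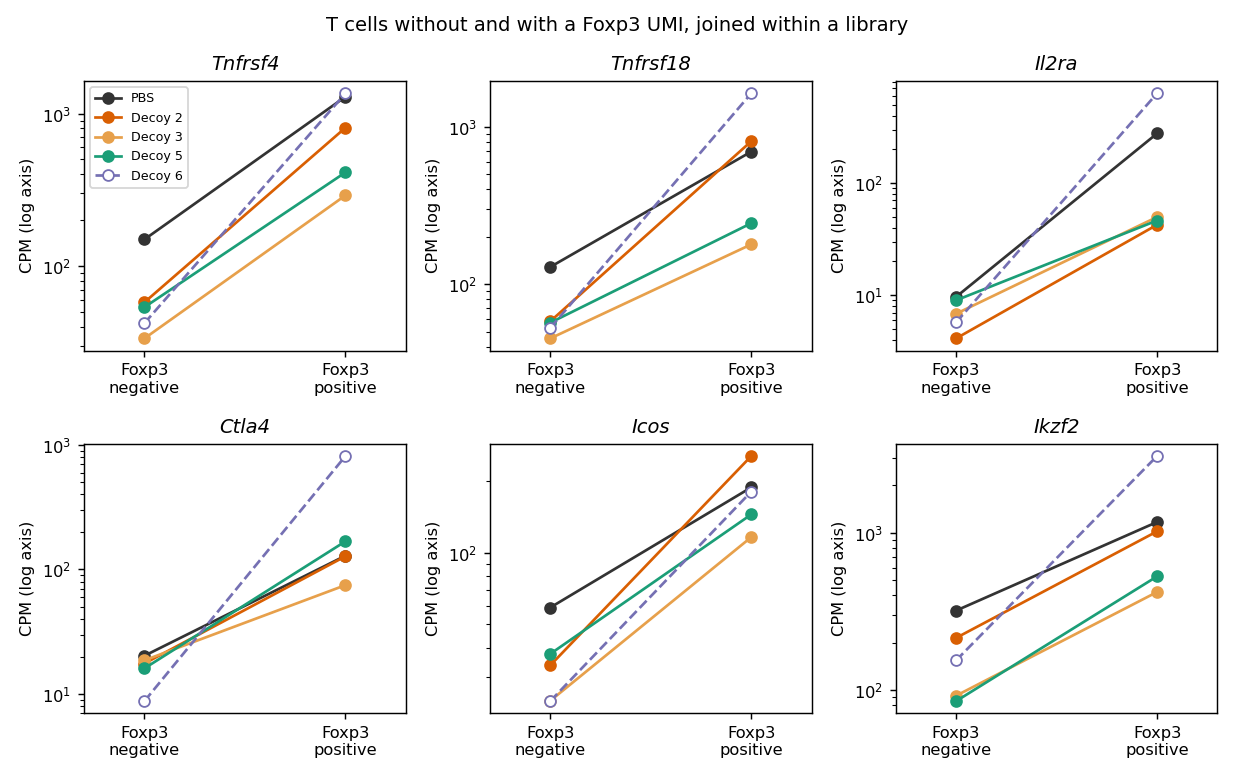
Levels in CPM, on log axes, in T cells without and with a Foxp3 UMI; lines join the sets of 1 library, and the open symbol and dashed line are Decoy 6, which had 3 Foxp3-positive cells and was not in the test. Every line rises in all 6 panels, as for Tnfrsf4 from 150 to 1289 CPM in PBS.

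Other regulatory T cell genes were less uniform. Of 11 tested, 3 rose in Foxp3-positive cells. Izumo1r (folate receptor 4) had a log2 fold change of 2.89 ± 0.31 (edgeR adjusted p = 4.69e-06) and Capg 1.11 ± 0.22 (0.00747). Ikzf4 (Eos, a relative of Ikzf2) had 3.1 ± 0.39. At a mean of 6.72 CPM in Foxp3-negative cells, Ikzf4 passed the low-count filter through the Foxp3-positive cells, which fixed its direction. Of 17 receptor signalling genes 3 rose, the adaptor Traf1 and the feedback inhibitors Cish and Nfkbia, by 1.54, 1.69 and 1.05 on the log2 scale. Among the activation genes reported here, the transcription factor Gata3 rose by 1.62. Of 9 genes of resting T cells the interleukin-7 receptor Il7r rose by 1.93 and the transcription factor Klf2 fell by 1.45. T cell identity genes had a median log2 fold change of 0.07, with Cd5, Cd6 and Cd2 called higher among 16, against 2.54 for the 6 genes and -0.04 for all genes.

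Neutrophil and immunoglobulin genes were among the largest falls. Ngp, Camp, Ltf, S100a8 and S100a9, proteins of neutrophil granules and cytosol, averaged 0, 3.94, 2.48, 149 and 45.9 CPM in Foxp3-positive cells and 1066, 1218, 267, 5609 and 5360 CPM in Foxp3-negative cells. The immunoglobulin genes Ighg2c and Ighg2b averaged 17.2 and 32.4 against 2343 and 693 CPM, and the cytotoxic protease Gzma 4.35 against 398 CPM. Ngp, Camp, Ltf and Gzma passed the low-count filter mainly through the Foxp3-negative cells, which favoured a fall. The summed level of the 8 neutrophil markers was 29.7 to 493 CPM in the Foxp3-positive cells of the 4 libraries, with 3 to 5 of the markers at 0, and 4672 to 24419 CPM in the Foxp3-negative cells, with none at 0. The 8 macrophage markers ran from 19.8 to 4004 CPM in the first set and from 29.9 to 4049 CPM in the second. The part of either in the higher levels of the 6 genes was not tested. Besides the genes named, Bmyc, a relative of Myc, and Neb, a giant actin-binding protein, were among the 8 largest rises, at 2.57 and 2.27. Bmyc and Neb averaged 15.6 and 10.4 CPM in Foxp3-negative cells, means at which the low-count filter favoured a rise. Neb was higher in 3 of 4 libraries.

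Single cells showed the genes together. Of 36 Foxp3-positive T cells, 29 held Tnfrsf4, 32 Tnfrsf18, 33 Ikzf2, 23 Icos, 22 Ctla4 and 20 Il2ra. At least 4 of these 6 genes were detected in 27 of 36 Foxp3-positive cells (75.0%) and in 137 of 681 Foxp3-negative cells (20.1%), pooled over libraries and given without a test. Depth ran the other way, with medians of 3540 to 8057 UMIs per library in Foxp3-positive cells and 8033 to 24508.5 in Foxp3-negative cells. In Cd4 T cells without Foxp3 the share was 38.6% of 132 cells, and in Cd8 T cells 15.9% of 416. By the ratio of shares Il2ra differed most among the 6 genes, found in 55.6% of Foxp3-positive cells against 9.85% of Foxp3-negative Cd4 T cells and 6.73% of Cd8 T cells, whereas Tnfrsf18 was in 88.9%, 65.9% and 63.2%.

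**Figure D4:**
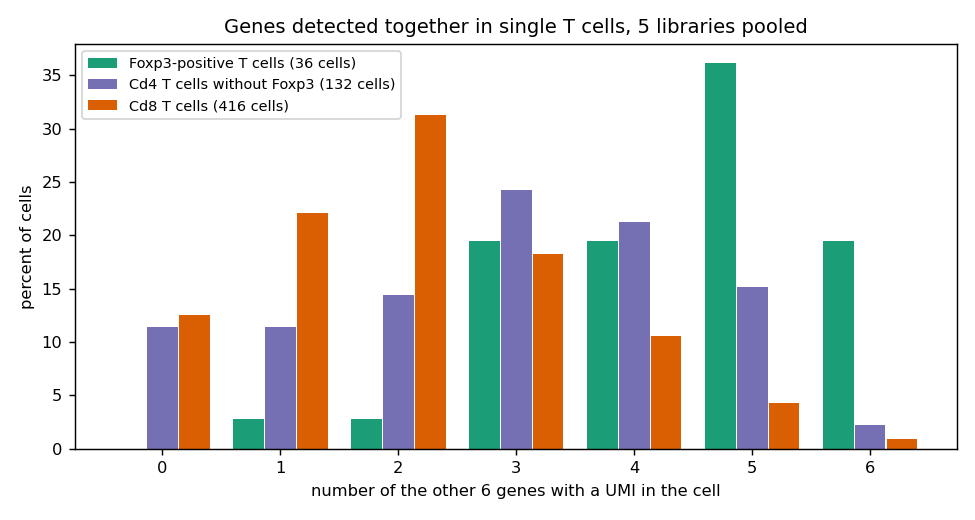
Percent of cells, from 0, by how many of the 6 genes other than Foxp3 had a UMI, for Foxp3-positive T cells (36), Cd4 T cells without Foxp3 (132) and Cd8 T cells (416), cells of 5 libraries pooled. Foxp3-positive cells peak at 5 genes with 36.1% of cells, Foxp3-negative Cd4 T cells at 3 with 24.2%, and Cd8 T cells at 2 with 31.3%.

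Cd4 and Cd8 T cells differed in the TNF receptors and Icos. Tnfrsf4 stood at 509, 202, 104, 173 and 154 CPM in Cd4 T cells of PBS, Decoy 2, Decoy 3, Decoy 5 and Decoy 6 and at 166, 56.4, 17.0, 26.1 and 13.5 CPM in their Cd8 T cells, higher in 5 of 5 libraries. Its log2 fold change was 2.48 ± 0.24 (edgeR with a library term, adjusted p = 6.10e-04), and 1.21% of 8258 genes were called, 0.739% higher in Cd4 and 0.472% lower. Icos, with 2.0 ± 0.19 (edgeR adjusted p = 4.31e-04), and Tnfrsf18, with 1.07 ± 0.14 (0.00409), were higher in Cd4 T cells too. Foxp3 was called at 2.63 ± 0.52, but it passed the low-count filter mainly through the Cd4 T cells, which favoured that direction. Its p is therefore left out, and it is not read as support. Foxp3 rested on few cells, with an edgeR adjusted p of 0.214 without Decoy 3 and 0.0696 without Decoy 6. Ctla4 and Ikzf2 did not pass, at 1.16 ± 0.34 and 0.44 ± 0.19 (edgeR adjusted p = 0.217 and 0.496), and Il2ra was below the filter on low counts. Without the library term Tnfrsf4, Tnfrsf18 and Foxp3 did not pass (edgeR adjusted p = 0.376, 0.609 and 0.641), and Foxp3 also missed the threshold with library totals (0.0504) and with doublets kept (0.0598).

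Some of the other listed genes differed between Cd4 and Cd8 T cells, where 1.21% of 8258 genes were called. Of 27 activation genes tested, Gzmb, Nr4a2, Cd160 and Gzmk were lower in Cd4 than in Cd8 T cells, Gzmb by a log2 fold change of -4.37, and Cxcr3, Cd28 and Batf were higher. Of 12 resting genes, the transcription factor Tcf7 (2.47) and the egress receptor S1pr1 (1.34) were higher, and of 10 other regulatory T cell genes Izumo1r (2.87) and Capg (0.84) were. Of 17 receptor signalling genes 1 was called higher and 1 lower, and of 13 T cell identity genes 2 were called higher.

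Set against B cell-like cells of the same libraries, 6 of the 7 genes were tested and all were higher in T cells, where 44.0% of 10521 genes were called, 23.1% higher (2429) and 20.9% lower (2196). With library totals in place of TMM scaling the split was 4001 higher and 1291 lower. Tnfrsf4 averaged 96.0 CPM in T cells and 1.54 CPM in B cell-like cells, a log2 fold change of 5.59 ± 0.15, given without its p. Tnfrsf18 had the smallest, 1.68 ± 0.19 (edgeR adjusted p = 2.27e-04), with 19.0 CPM in B cell-like cells. Ctla4, Icos, Tnfrsf4 and Il2ra, with 5, 2, 29 and 28 UMIs in 2370 B cell-like cells, passed the low-count filter through the T cells. The filter thus fixed their direction, and the count of 6 is not read as support. Foxp3, with no UMI there, was below the filter.

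Across the cell classes with at least 20 cells in a library, each gene had its own order, given here as levels with no test. Foxp3 averaged 10.2 ± 14.5 CPM in T cells (SD, n = 5) and at most 0.175 CPM elsewhere. Ctla4 averaged 20.5 ± 6.94 CPM in T cells, with plasma cell-like cells next at 2.12 ± 0.900 CPM (n = 4). Icos averaged 40.4 ± 18.0 CPM in T cells and 6.69 ± 4.91 CPM in conventional dendritic cell-like cells (n = 4), from 8 UMIs. Tnfrsf4 averaged 96.0 ± 87.2 CPM in T cells and 41.6 ± 19.7 CPM in dendritic cell-like cells, whose ranges, 45.1 to 251 and 15.8 to 57.3 CPM, overlapped, and then at most 2.53 CPM. Il2ra did not separate them, at 12.9 ± 11.6 CPM in T cells and 13.1 ± 11.5 CPM in dendritic cell-like cells, with macrophage-like cells at 3.51 ± 2.87 CPM. Tnfrsf18 averaged 84.2 ± 53.2 CPM in T cells, while mast cell and basophil-like, dendritic cell-like and B cell-like cells lay within their spread of each other at 21.4 ± 3.61, 19.6 ± 3.20 and 19.0 ± 3.39 CPM.

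The dendritic cell-like cluster was led by Fscn1 and Ccr7, genes of dendritic cells that move to lymph nodes, and held 6 of 7 markers of its list. Of its 153 cells, 17 held Tnfrsf4, and none of those 17 held a Cd3 UMI. Tnfrsf4 stood there at 57.3 CPM in PBS and at 15.8, 37.0 and 56.5 CPM in Decoy 3, Decoy 5 and Decoy 6. These levels came from 16, 4, 15 and 15 UMIs in 2 of 41, 3 of 21, 5 of 47 and 5 of 36 cells.

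The Ikzf2 levels of some other classes overlapped those of T cells. The mast cell and basophil-like class, which held most of the sorted cells, merged 9 clusters. It was named after the merge from Fcer1a, Ms4a2 and Cpa3, 3 of 10 markers, with Bex4 and Tph1 leading. Before the merge, clusters of 2968 and 1639 of its 21876 cells carried that name. A cluster of 881 cells was named erythroid, and the others were unnamed. Which of its cells were leukaemia cells was not tested. Ikzf2 averaged 281 ± 33.7 CPM (n = 4) in this class, 265 ± 92.7 CPM (n = 4) in an unnamed class and 199 ± 121 CPM (n = 5) in T cells, which overlap. In T cells minus mast cell and basophil-like cells, over the 4 libraries that held at least 20 of both, 6 of the 7 genes were higher, where 55.4% of 11309 genes were called, 28.1% higher and 27.3% lower, and Ikzf2 was not called, at -0.57 ± 0.35 (edgeR adjusted p = 0.212). Foxp3, Ctla4, Icos, Tnfrsf4 and Il2ra had 27, 13, 13, 640 and 54 UMIs in 21860 mast cell and basophil-like cells. They passed the filter through the T cells, which fixed their direction, and the count of 6 is not read as support. The highest single level of Ikzf2 was that of PBS T cells, 395 CPM, against at most 313 CPM in a library of mast cell and basophil-like cells. In B cell-like cells Ikzf2 stood at 48.3 CPM in PBS and 43.5, 1.28, 0 and 18.8 CPM in Decoy 2, Decoy 3, Decoy 5 and Decoy 6, and in neutrophil-like cells at 64.1 CPM and 35.8, 0, 0 and 28.7 CPM. The libraries with more mast cell and basophil-like cells, 14806 in PBS, 5264 in Decoy 2 and 1411 in Decoy 6, against 379 in Decoy 3 and 3 in Decoy 5, thus had higher Ikzf2 levels in these classes. Macrophage-like, plasma cell-like and conventional dendritic cell-like cells showed the same split. Monocyte-like cells did not, with 5.01 CPM in Decoy 5 and 4.03 CPM in Decoy 6. Nor did erythroid-like cells, with 5.11 CPM in Decoy 3 and 4.54 CPM in Decoy 6. Plasmacytoid dendritic cell-like cells of Decoy 5 held 38.8 CPM. T cells of Decoy 5, which had 3 mast cell and basophil-like cells, held 98.0 CPM. The part of other cells' RNA in the Ikzf2 level of T cells of the remaining libraries was not tested.

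**Figure D5:**
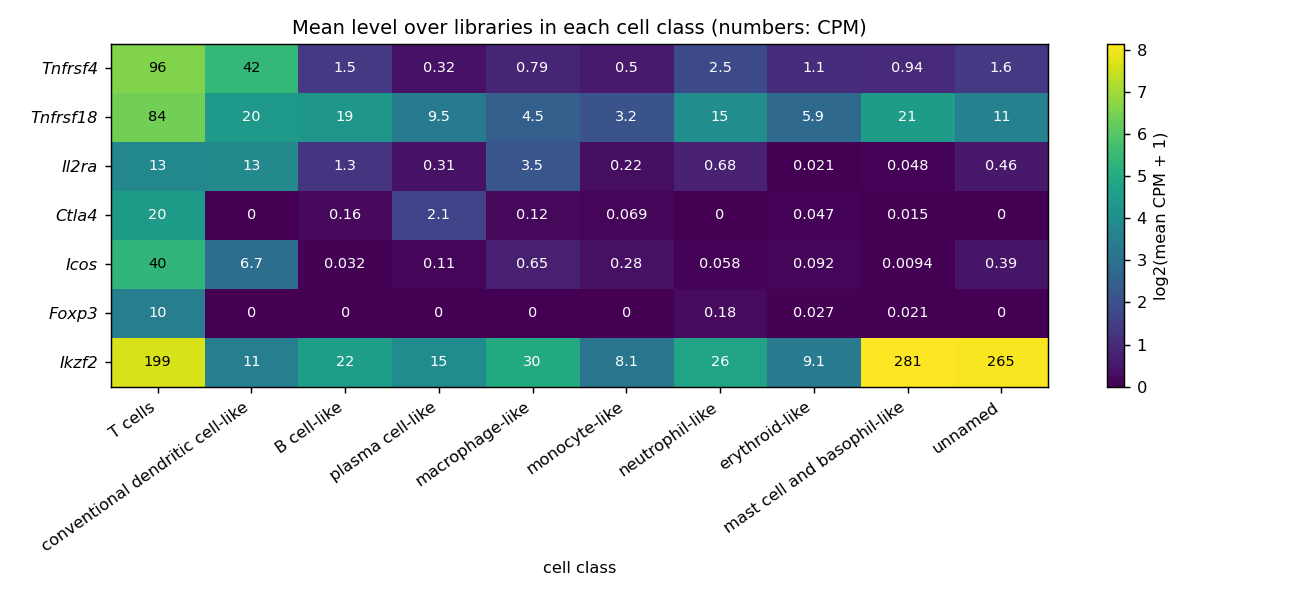
Mean CPM over libraries for the 7 genes (rows) in 10 cell classes (columns), coloured by log2(mean CPM + 1) with the CPM printed. Foxp3, Ctla4 and Icos stand out in T cells, Tnfrsf4 and Il2ra in T cells and conventional dendritic cell-like cells, and Ikzf2 at 281 CPM in mast cell and basophil-like cells.

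The genes were not called as changed by treatment in the mast cell and basophil-like cells, a contrast outside the choice of the genes, with PBS, Decoy 2, Decoy 3 and Decoy 6. Of the 7, 4 passed the filter and 0 were called, where 0.776% of 14304 genes were, 0.706% higher and 0.0699% lower. Tnfrsf18 stood at 26.2 CPM in PBS and 19.8 CPM in the mean of 3 Decoy libraries, a log2 fold change of -0.30 ± 0.13 (edgeR adjusted p = 0.467). Ikzf2 had 0.04 ± 0.15 and Tnfrsf4, at 0.833 CPM in PBS, 0.32 ± 0.36. Il2ra had -1.23 ± 0.88, at 0.0912 CPM in PBS and 0.0291, 0 and 0.0714 CPM in Decoy 2, Decoy 3 and Decoy 6. Il2ra passed the low-count filter through PBS alone, which fixed its direction, and nothing is read from it. A difference between this class and T cells was not tested.

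The ligands of these receptors were low in most classes. Tnfsf4, the OX40 ligand, averaged 5.24 ± 2.91 CPM in T cells and 3.30 ± 0.806 CPM in mast cell and basophil-like cells. Tnfsf18, the GITR ligand, did not exceed a mean of 0.273 CPM in any class, and Il2 0.679 CPM. Icosl averaged 53.3 ± 7.75 CPM in B cell-like cells, and Cd86 and Cd80, the ligands of Ctla4 and Cd28, were highest in the dendritic cell-like class at 97.2 ± 4.31 and 20.4 ± 3.24 CPM.

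Over 47 sets of 1 class in 1 library, from 11 classes, the genes whose log2(CPM + 1) ran most like Foxp3 were Tnfsf8 (Pearson r = 0.93), Tcrg-C2 (0.93), Gm2682 (0.92), Izumo1r (0.91) and Calcb (0.91). Those most like Tnfrsf4 were Tcf7 (0.90), Tnfrsf9 (0.87), Icos (0.86), Cd8a (0.85) and Ppm1j (0.85). These correlations are a description over sets that share libraries, and they were not computed within T cells.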

How the data were processed

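The deposited values were counts, whole UMIs per gene and barcode with no normalization, from the authors' Cell Ranger run. The matrix headers name Cell Ranger 5.0.0, whereas the submitters' processing notes name Cell Ranger 3.1, Seurat 4, DESeq2 and mm10. Total UMIs were 579333323 in PBS and 56490098 to 234251245 in the Decoy libraries, and pairs of libraries shared 1 to 45 barcodes, at most 0.695% of the smaller. The members and gene lists were chosen with earlier results of these data known.

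Barcodes with at least 500 genes, 1000 UMIs and at most 10% mitochondrial UMIs were kept. Doublets marked by scrublet (scanpy 1.11.5) were removed, 6.88% in PBS, where 15.5% were expected, and 0% to 0.412% in the Decoy libraries, where 1.96% to 5.49% were expected, so both kept doublets and the Decoy libraries kept nearly all. Leiden clusters (leidenalg 0.10.2, 2000 variable genes, 30 components, 15 neighbours, resolution 1) were named from fixed markers, at least 3 of a list in 10% of cells and 2-fold above the others; clusters correlated at 0.96 or more were merged, a step added after the clusters had been seen.

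UMIs were summed per library and cell set. edgeR 4.0.16 in R 4.3.3 (filterByExpr, TMM, two-sided quasi-likelihood test, Benjamini-Hochberg over all genes) was tested on simulated data. The library was the replicate; the labels do not say that libraries are separate animals, and p-values therefore cover no more than how libraries vary, while with 1 PBS library that spread came from the Decoy libraries. Levels quoted as CPM use summed totals; shares of thinned cells are expected shares at 3000 UMIs. Intervals cover counting error only. Alternatives were library totals, no low-count filter, DESeq2 1.42.0, other doublet and T cell rules, no library term and leaving out each library; the ratio to T cell receptor UMIs and the use of libraries with at least 1 Foxp3-positive cell were added later. Named genes were the 7, up to 4 called genes of each list or its 2 most abundant, up to 8 called genes per direction at a mean of at least 20 CPM in the Foxp3 contrast, and the 5 most correlated with Foxp3 and Tnfrsf4. The result of 1 gene of the activation list is not reported here.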

Additional observations from a re-analysis of the deposited data

How the results depend on the processing

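Of alternative counts of called genes 54 stayed within 1.5 times the main count and 22 did not, of the alternative log2 fold changes of the 7 genes 357 kept direction and call, 2 reversed, 2 gained and 12 lost a call, and of alternative T cell levels 75 moved by less than 1 SD and 13 by more. No paired analysis was possible because the PBS library shares no replicate number with the Decoy libraries. Foxp3 rested on 3 to 10 positive cells per library, and the Decoy libraries kept nearly all doublets. The causes of the changes below were not tested.

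Decoy against PBS in T cells called 0 genes, 364 with DESeq2, and 0 to 1373 when 1 library was left out, the highest without Decoy 2. Foxp3-positive against negative T cells called 79 genes, 175 without the low-count filter, 46 with DESeq2, 178 with doublets removed at the expected rate, 42 in T cell-like clusters only, 7 without the library term, 146 with all libraries that held a Foxp3-positive cell, and 39 to 112 when 1 library was left out, the lowest without Decoy 3, with 52 without Decoy 5. Cd4 against Cd8 T cells called 100 genes, 375 without the filter, 63 with doublets removed at the expected rate, 165 in T cell-like clusters only, 49 without the library term, and 40 to 98 when 1 library was left out, the lowest without Decoy 3, with 61 without Decoy 6. T cells against mast cell and basophil-like cells called 6263 genes and 3132 to 6949 when 1 library was left out, the lowest without Decoy 6. Mast cell and basophil-like cells, Decoy against PBS, called 111 genes, 546 without the filter, 260 with DESeq2, and 32 to 447 when 1 library was left out, the highest without Decoy 2 and the lowest without Decoy 3, with 332 without Decoy 6.

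In T cells the log2 of the Decoy mean over PBS for Tnfrsf4 was -2.13, and -1.71 in T cell-like clusters only, -1.69 as a mean over cells and -1.72 with doublets kept. The median over the 7 genes was -1.13 in T cell-like clusters only, -1.15 without cells with other markers and -1.14 with doublets kept. Ctla4 was lower than PBS in 3 of 4 Decoy libraries with doublets kept and as a mean over cells, and in 2 of 4 in T cell-like clusters. Ikzf2 in mast cell and basophil-like cells changed sign near 0, to -0.0422 with library totals, and ran from -0.0389 to 0.150 when 1 Decoy library was left out. In Cd4 against Cd8 T cells Ctla4 passed without the low-count filter (edgeR adjusted p = 0.00410) and in T cell-like clusters (0.0495), while Foxp3 did not pass with library totals (0.0504), with doublets kept (0.0598), without the library term (0.641), without Decoy 3 or without Decoy 6.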

Other observations

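T cells that fell in macrophage-like clusters, found in the Decoy libraries only as 7, 34, 48 and 45 cells of Decoy 2, Decoy 3, Decoy 5 and Decoy 6, had median depths of 40181 to 63222.5 UMIs, against 6709.5 to 13644 for Decoy T cells in the T cell-like cluster. Tnfrsf4 stood at 45.7, 18.5, 26.2 and 22.4 CPM in them and Tnfrsf18 at 33.5, 24.1, 28.3 and 34.7 CPM, levels below those of all T cells of the same libraries. T cells with both Cd4 and Cd8 UMIs were not found among 70 in PBS (a count of 0 allows 4.29%) and were 2.11% to 6.29% in the Decoy libraries, with medians of 15441 to 77388.5 UMIs. Cells with neither were 32.9% of PBS T cells, at a median of 3648 UMIs, and 15% ± 4.02 of Decoy T cells (SD, n = 4).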
